A study of Cavia porcellus with 8 samples.

Results

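The chemokines CCL2, CXCL1 and CCL5 were followed on microarrays of whole guinea pig cochleae after insertion of a cochlear implant electrode. They were represented by 4 of the 13269 features of the array, chosen by their accession, L04985 for CCL2, U95810 for CXCL1 (deposited as a GRO precursor), and AB002662 and U77037 for CCL5 (RANTES). The animals were male Hartley guinea pigs, with an age given as 7 weeks in the treatment protocol and as 8 weeks in the sample labels. In the normal electrode group (NOR), 3 animals received a silicone dummy electrode without wires or contacts, and in the dexamethasone-eluting group (DEX) 3 animals received the same kind of dummy with dexamethasone mixed into its silicone. Both groups had surgery, and the cochlea was taken 7 days after insertion. The control group (CNT) consisted of 2 animals that did not undergo surgery, so that no group had surgery without an electrode. Each cochlea was hybridized to its own array. CCL2, CXCL1 and CCL5 belong to the genes that the study listed because they were 2-fold or more higher in NOR than in CNT on these same arrays, so the direction of that comparison is not independent evidence.

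Chemokines are small secreted proteins that bind receptors of the G protein-coupled class on leukocytes and direct these cells along a gradient into injured tissue. CC chemokines, with adjacent cysteines near the amino terminus, act mostly on monocytes and lymphocytes, and CXC chemokines with an ELR motif act mostly on neutrophils. Cytokines such as interleukin-1 beta and tumor necrosis factor-alpha induce many of them, and glucocorticoids such as dexamethasone are known to repress many inflammatory genes. In the cochlea, fibrocytes of the spiral ligament and macrophages are known sources of chemokines.

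The identity of the features came from the study. The group averages of L04985 and U95810 correspond to its rows for CCL2 and CXCL1, and the average of AB002662 and U77037 to its row for CCL5. The RefSeq gene table for the guinea pig (assembly mCavPor4.1) held 0 of the array's accessions, and it gives GRO as another name of Cxcl2, so the name CXCL1 for U95810 is the study's. Other chemokines, chemokine receptors and defining markers of the cochlea could therefore not be looked up by name and were not analysed here, and genes of leukocytes were limited to those the study itself names. Each value is a linear signal of the whole cochlea, in which a change in the number of cells and a change in RNA per cell cannot be told apart.

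The arrays fell into 2 sets with separate scales. The first 2 animals of each implanted group, NOR 1, NOR 2, DEX 1 and DEX 2, made up array set A, where the median over all features was 395 to 405. NOR 3, DEX 3 and the 2 controls made up array set B, where it was 308 to 325. Neither the labels nor the study's methods name such sets. The log2 signals were therefore quantile-normalized across the 8 arrays before the 3 groups were compared by limma over all features. The word called is used for features with an adjusted p under 0.05 that also differed by 2-fold or more. Since no control lies in set A, values within set B are given beside the comparisons with CNT. The p-values rest on the spread between single cochleae, 1 per animal. In NOR and DEX this spread also holds any difference between the array sets left by normalization, since the main model had no term for them.

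CCL2, or monocyte chemoattractant protein-1, attracts monocytes through the receptor CCR2. Its normalized signal was 841 in NOR replicate 1, 1547 in NOR replicate 2 and 1281 in NOR replicate 3. In DEX it was 2004, 2136 and 832 in replicates 1 to 3, and in CNT 246 and 201. Every implanted cochlea lay above both controls, whereas NOR and DEX overlapped, with DEX replicates 1 and 2 the highest of all and DEX replicate 3 the lowest of the implanted animals. With median centring NOR replicate 1 (840) was the lowest of them, just below DEX replicate 3 (847). On the scale of ranks within an array, which does not depend on the scaling between arrays, CCL2 stood at percentiles 44.0 and 46.0 of all features in the controls and between 59.3 and 71.8 in the implanted animals. The controls averaged 224 ± 31.3 (SD, n = 2), the NOR animals 1223 ± 356 (SD, n = 3) and the DEX animals 1657 ± 718 (SD, n = 3).

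CCL2 rose in both implanted groups. Its log2 change was 2.41 (SE 0.42, limma adjusted p = 0.0194) in NOR against CNT, a 5.33-fold difference with a 95% interval from 2.71 to 10.5. In DEX against CNT it was 2.78 (SE 0.42, adjusted p = 0.0191), or 6.86-fold with an interval from 3.50 to 13.5. Only 38 features of the array had a larger log2 change than CCL2 in NOR against CNT, and 15 in DEX against CNT. Within array set B, NOR replicate 3 was 2.53 above the mean of the controls and DEX replicate 3 was 1.90 above it on the log2 scale, and the controls differed from each other by 0.29. When the model also held the array set, the log2 changes were 2.03 (adjusted p = 0.0204) for NOR and 2.40 (adjusted p = 0.0180) for DEX. The call for NOR was lost without NOR replicate 2 (adjusted p = 0.0661), CNT replicate 1 (0.117) or CNT replicate 2 (0.119), and that for DEX without DEX replicate 1 (0.0819), DEX replicate 2 (0.0659), CNT replicate 1 (0.118) or CNT replicate 2 (0.113), while the log2 change stayed between 2.22 and 2.66 for NOR and between 2.53 and 3.23 for DEX with any single animal left out.

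**Figure D1:**
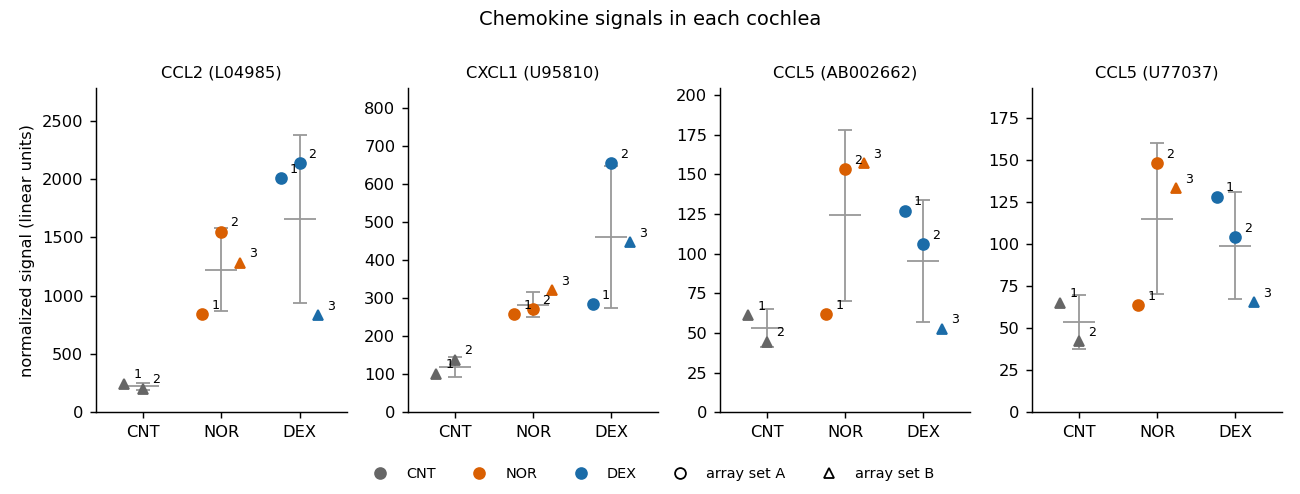
Quantile-normalized linear signal of each of the 4 chemokine features (vertical axes, from 0) in the CNT, NOR and DEX animals. Points are animals with their replicate number, circles for array set A and triangles for set B, and grey bars are the mean and SD of 3 (NOR, DEX) or 2 (CNT) animals. For CCL2 and CXCL1 all 6 implanted animals lie above both controls, and for CCL5 NOR replicate 1 and DEX replicate 3 lie near CNT replicate 1.

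CXCL1, or growth-regulated oncogene, attracts neutrophils through the receptor CXCR2. In NOR its normalized signals lay close together, at 259, 271 and 321 in replicates 1 to 3, whereas in DEX they were 284, 656 and 447. The controls had signals of 102 and 138. Every implanted cochlea again lay above both controls. DEX replicates 2 and 3 were above all NOR animals, but DEX replicate 1 fell between NOR replicates 2 and 3, so that NOR and DEX overlapped. This overlap depended on the scaling between the array sets. With the signals as deposited the lowest DEX signal, 314 in replicate 1, was above the highest NOR signal, 306 in replicate 2, whereas with median centring the groups overlapped, at 282 against 321. The controls averaged 120 ± 25.9 (SD, n = 2), the NOR animals 283 ± 32.8 (SD, n = 3) and the DEX animals 462 ± 187 (SD, n = 3), and the coefficient of variation was 11.6% in NOR and 40.4% in DEX, against 2.40% and 46.0% as deposited.

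CXCL1 rose in DEX against CNT, with a log2 change of 1.88 (SE 0.32, adjusted p = 0.0249 from limma), a 3.69-fold difference with a 95% interval from 2.21 to 6.15. In NOR against CNT the log2 change of CXCL1 was 1.25 (SE 0.32), 2.38-fold with an interval from 1.43 to 3.97, and its adjusted p of 0.0521 did not pass the threshold. This result stood at the edge of the test. With the replicate number as a block CXCL1 was called in NOR against CNT (1.20, SE 0.25, adjusted p = 0.0261), as it was with the array set in the model (1.36, SE 0.38, adjusted p = 0.0424), without DEX replicate 1 (0.0399) and without DEX replicate 2 (0.0360), and over the alternative limma settings on arrays of both sets its adjusted p ranged from 0.0200 to 0.279. The block joined the controls, which lie in set B, to implanted animals of set A by replicate number alone. In set B, NOR replicate 3 was 1.44 and DEX replicate 3 was 1.91 above the mean of the controls on the log2 scale, against 0.44 between the controls. The call in DEX against CNT was lost without DEX replicate 2 (0.0561), NOR replicate 2 (0.0508), CNT replicate 1 (0.176) or CNT replicate 2 (0.0902).

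CCL5, or RANTES, attracts T lymphocytes, eosinophils and monocytes. Its features were read separately and then as an average. AB002662 had normalized signals of 61.7, 153 and 157 in NOR, of 127, 106 and 52.7 in DEX and of 61.3 and 44.5 in CNT. U77037 had 63.7, 148 and 133 in NOR, 128, 104 and 65.3 in DEX and 65.0 and 42.1 in CNT. Both features put NOR replicates 2 and 3 and DEX replicates 1 and 2 above the controls, and NOR replicate 1 and DEX replicate 3 at about the level of CNT replicate 1. AB002662 and U77037 were at most 1.24-fold apart in any animal, in DEX replicate 3, and at most 1.06-fold apart in the animals of set A and the controls. As an average of its features, CCL5 had a mean signal of 53.2 ± 14.0 (SD, n = 2) in the controls, 119 ± 49.1 (SD, n = 3) in the NOR animals and 97.1 ± 34.8 (SD, n = 3) in the DEX animals.

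Neither feature of CCL5 was called in any comparison. In NOR against CNT the log2 change was 1.13 for AB002662 (SE 0.49, limma adjusted p = 0.178) and 1.04 for U77037 (SE 0.42, adjusted p = 0.149). That of the average was 1.09 (limma adjusted p = 0.162), or 2.12-fold with an unadjusted 95% interval from 1.03 to 4.36. In DEX against CNT the average differed by 0.82 on the log2 scale (adjusted p = 0.300), or 1.77-fold with an interval from 0.860 to 3.63. Within array set B the average of CCL5 was 1.47 higher in NOR replicate 3 than in the controls on the log2 scale, but 0.17 higher in DEX replicate 3, against 0.54 between the controls. With array weights both features were called in NOR against CNT, with adjusted p-values of 0.0304 for AB002662 and 0.0258 for U77037, and in DEX against CNT, where AB002662 had 0.0324 and U77037 0.0224.

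**Figure D2:**
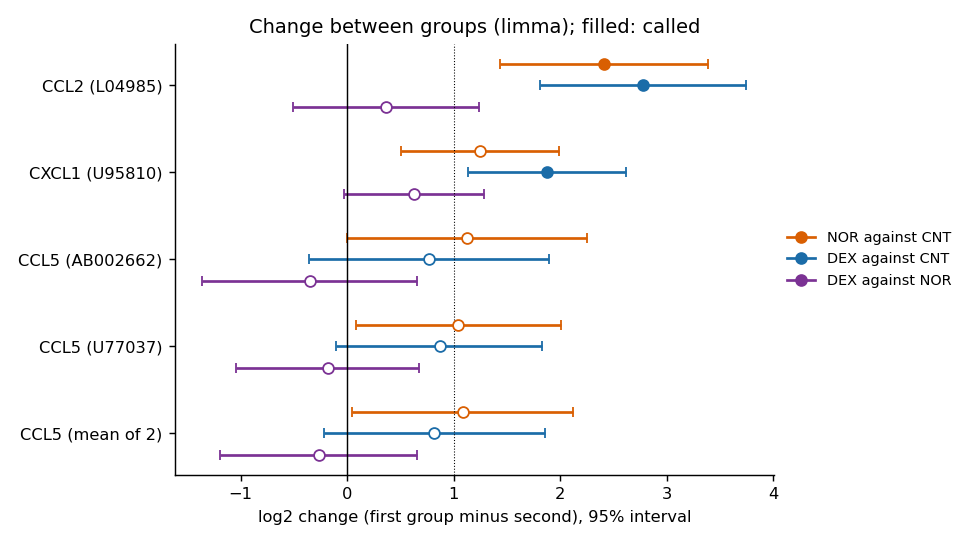
Log2 change (horizontal axis) with its 95% interval from limma for the 4 chemokine features and the average of the CCL5 features, in NOR against CNT, DEX against CNT and DEX against NOR. Filled points were called, the solid line marks no change and the dotted line a 2-fold rise, and the called points are those of CCL2 in both implanted groups and of CXCL1 in DEX.

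The counts of called chemokine features were set against those of the whole array. In NOR against CNT 1 of the 4 features was called higher, where 1.34% of all features were, and in 3 of the 4, all but U77037, every NOR animal was above both controls, where this held for 25.5% of all features. In DEX against CNT 2 of the 4 were called higher, where 0.957% of all features were, and in 3 of the 4, all but AB002662, the DEX animals were all above the controls, where 25.4% of all features showed this. For the CCL5 features this count turned on signals close to those of CNT replicate 1 and moved with the scaling. As deposited it was 4 of 4 in NOR, against 36.2% of all features, and 2 of 4 in DEX, against 34.1%, and with median centring it was 2 of 4 in both, CCL2 and CXCL1, against 17.3% of all features in NOR and 19.1% in DEX. The median log2 change of the 4 features was 1.19 in NOR and 1.37 in DEX, where the median of all features was 0.01 in both. These counts rest on a choice of genes made from NOR against CNT on these arrays, and the comparisons share the same 2 controls.

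Cytokines, among them inducers of chemokines, and proteins of the leukocytes that chemokines attract were taken from the study's list of genes that were higher in NOR. Since that list was made from NOR against CNT on these arrays, their counts in it are a description and carry no weight as evidence of direction. Of the 4 cytokine features, 3 were called higher in NOR against CNT, where 1.34% of all features were, and 2 in DEX against CNT, where 0.957% were. Interleukin-1 beta (AF119622) had a log2 change of 1.79 in NOR (limma adjusted p = 0.0223) and of 1.03 in DEX (adjusted p = 0.104), and tumor necrosis factor-alpha (U77036) rose by 1.63 (adjusted p = 0.0173) and 1.19 (adjusted p = 0.0482) on the log2 scale. Interleukin-15 had log2 changes of 1.56 in NOR and 1.46 in DEX and was called in both. Transforming growth factor-beta, with 0.99 in NOR and 0.54 in DEX, was called in neither. Of 12 features of leukocyte proteins, 7 were called higher in each of these comparisons, with median log2 changes of 1.39 in NOR and 1.15 in DEX. The 3 Fc-gamma receptor features, CD8-alpha and the 2 features of GPR34 were called in both. CD8-beta was called in NOR against CNT and Mo1-alpha in DEX against CNT, while the features of the C3a receptor (C3AR1) and of the leukotriene B4 receptor (LTB4R) were called in neither. Their part in the chemokine signals was not tested. In DEX against NOR 0 features of these lists were called. The log2 changes reached from -0.76 to -0.10 for the cytokines, from -0.82 to 0.76 for the leukocyte proteins and from -0.35 to 0.63 for the chemokines.

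The direct comparison of the electrodes asked whether dexamethasone elution changed the chemokines. None of the 4 features was called in DEX against NOR by limma, 0 of them had an unadjusted p under 0.05 by limma or by the methods' t-test run on the normalized signals, and 0% of all features were called, with 329 of all features at an unadjusted p under 0.05. After normalization DEX and NOR overlapped in all 4 features, where 5.45% of all features did not overlap. As deposited the groups did not overlap in CXCL1 and in 4.45% of all features, and with median centring in 0 of the 4 and in 5.66% of all features. The log2 change was 0.37 for CCL2 (SE 0.38), and the 95% interval of the ratio reached from 0.704 to 2.35. It lay between 0.12, without NOR replicate 1 or DEX replicate 2, and 0.80, without DEX replicate 3, when single animals were left out. For CXCL1 it was 0.63 (SE 0.29, unadjusted p = 0.0586, adjusted p = 1.00 from limma), with a ratio of 1.55 and an interval from 0.980 to 2.45, and it lay between 0.34, without DEX replicate 2, and 0.94, without DEX replicate 1. With array weights the log2 change of CXCL1 was 0.23 (SE 0.23). CXCL1 was higher in DEX than in NOR in each of the 3 pairs of animals with the same replicate number, and with this number as a block its log2 change was 0.63 (SE 0.21, limma adjusted p = 0.968). Neither the labels nor the study's methods state that animals were paired by this number. The CCL5 average had a log2 change of -0.26, with a ratio of 0.833 and an interval from 0.437 to 1.58. With single animals left out AB002662 lay between -0.79 and 0.03 and U77037 between -0.56 and 0.10. Both were above 0 without DEX replicate 3, and U77037 also without NOR replicate 2 (0.05). The 95% intervals include both a lower level and a level more than 1.5-fold higher with dexamethasone for each chemokine. For 3 animals against 3, the exact permutation test cannot give a p under 0.1, and it gave 0.600 for CCL2, 0.200 for CXCL1 and 0.500 for the CCL5 average (2-sided). With the signals as deposited, CXCL1 reached that smallest value of 0.1.

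For CCL2 and CCL5 the electrodes differed in opposite directions in the 2 array sets, though a test of this passed the threshold for neither. In set A, with 2 animals per electrode, the mean log2 signal of CCL2 was 0.86 higher in DEX than in NOR, and in set B, with 1 animal per electrode, it was 0.62 lower, a log2 value of -0.62. The CCL5 average was 0.25 higher in DEX in set A and had a log2 difference of -1.30 in set B. CXCL1 was higher in DEX in both, by 0.71 in set A and by 0.48 in set B. Within set A, however, DEX replicates 1 and 2 differed by 1.21 in CXCL1 and NOR replicates 1 and 2 by 0.88 in CCL2 and 1.26 in the CCL5 average. A test of the difference between the sets, added after the values were seen, gave a log2 difference of -1.48 for CCL2 (unadjusted p = 0.0139, limma adjusted p = 0.279), -1.55 for the CCL5 average (adjusted p = 0.430) and -0.23 for CXCL1 (adjusted p = 0.941), so that it passed the threshold for none of them. Set B holds a single NOR and a single DEX animal, so that animal and set cannot be told apart there.

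**Figure D3:**
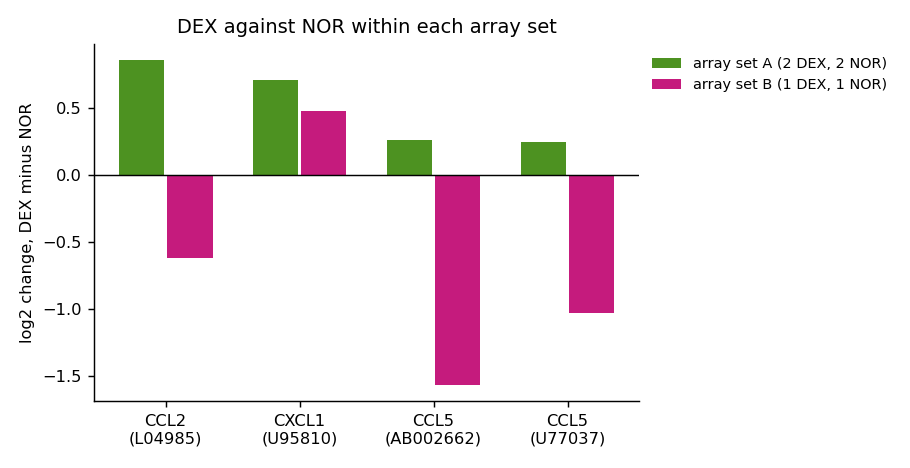
Log2 change of DEX against NOR (vertical axis) of each chemokine feature within array set A (mean of 2 DEX minus mean of 2 NOR animals) and within set B (1 DEX minus 1 NOR animal), without error bars since set B has no replicates. CXCL1 is above 0 in both sets, while CCL2 and both CCL5 features are above 0 in set A and below 0 in set B.

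The rank order of the animals by normalized signal differed between the chemokines. For CCL2 the order from the highest signal was DEX 2, DEX 1, NOR 2, NOR 3, NOR 1, DEX 3, CNT 1 and CNT 2. For CXCL1 it was DEX 2, DEX 3, NOR 3, DEX 1, NOR 2, NOR 1, CNT 2 and CNT 1, and for the CCL5 average NOR 2, NOR 3, DEX 1, DEX 2, CNT 1, NOR 1, DEX 3 and CNT 2. DEX replicate 3 moved the most, from rank 6 for CCL2 to rank 2 for CXCL1 and rank 7 for CCL5. As deposited the order of CCL2 was the same, but for CXCL1 the DEX animals took ranks 1 to 3, with NOR replicate 3 (293) behind NOR replicate 2 (306), and for CCL5 NOR replicate 1 (66.7) stood above CNT replicate 1 (61.9). With median centring DEX replicate 3 (847) stood above NOR replicate 1 (840) for CCL2. For CCL5 it put NOR replicate 3 (150) above NOR replicate 2 (147) and DEX replicate 3 (64.4) above NOR replicate 1 (58.6). NOR replicate 1 was among the lower implanted animals for each chemokine after normalization, at rank 5 for CCL2 and rank 6 for CXCL1 and CCL5. Neighbours in these orders were often close, as for CCL2 in NOR replicate 1 (841) and DEX replicate 3 (832) or for CCL5 in CNT replicate 1 (63.1) and NOR replicate 1 (62.7).

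**Figure D4:**
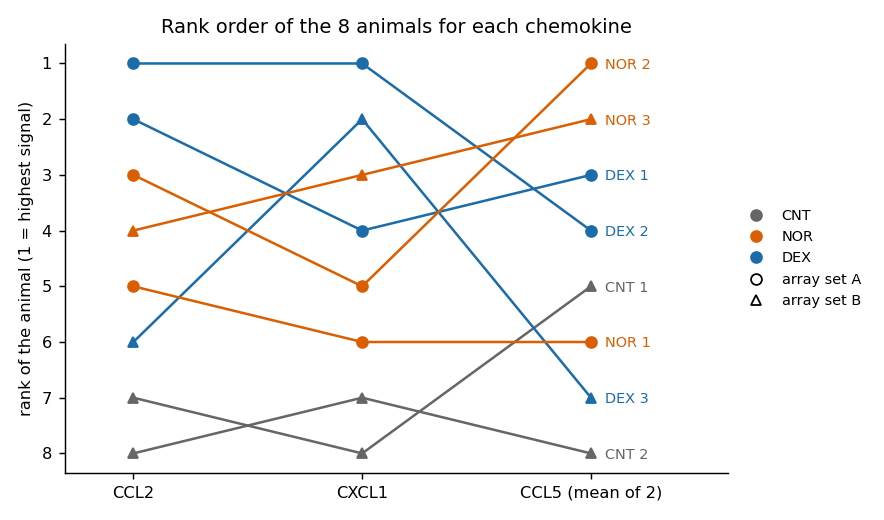
Rank of each of the 8 animals (vertical axis, 1 for the highest normalized signal) for CCL2, CXCL1 and the average of the CCL5 features, with a line per animal. The controls hold ranks 7 and 8 for CCL2 and CXCL1, and for CCL5 CNT replicate 1 is at rank 5, above NOR replicate 1 and DEX replicate 3.

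Correlations were computed over the 6 implanted animals alone, since the controls lie apart for CCL2 and CXCL1, and exact permutation p-values (2-sided) were adjusted over 6 pairs of features. The 2 CCL5 features correlated with r = 0.98 (exact p = 0.00556, adjusted 0.0333) and rho = 0.89 (exact p = 0.0333, adjusted 0.200), and with r = 0.91 without the 2 animals farthest from the median. CCL2 and AB002662 had r = 0.72 (exact p = 0.124, adjusted 0.247) and rho = 0.43 (exact p = 0.419, adjusted 0.839). This rested on NOR replicate 1 and DEX replicate 3, since r was -0.92 over the other 4 animals. CCL2 and U77037 gave r = 0.75 (exact p = 0.0972, adjusted 0.247) and rho = 0.43, and r = -0.69 without the same 2 animals. CCL2 and CXCL1 had r = 0.27 (exact p = 0.650, adjusted 0.783) and rho = 0.26 (exact p = 0.658, adjusted 0.963), with r = 0.54 without the 2 animals farthest from the median. CXCL1 and the CCL5 features had r of -0.20 for AB002662 and -0.18 for U77037 (exact p = 0.747 and 0.783), with rho of -0.14 and -0.03, and 0.68 and 0.57 for r without DEX replicates 2 and 3. Values of r over 4 animals are given only to show what the others rest on. No correlation was computed within an array set, since set A holds 4 of these animals and set B 2.

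The signals of different chemokines on the same array were also compared, a comparison added after the values were seen. Its value is a log2 difference within 1 cochlea, read only for how it changes between animals. CCL2 minus the CCL5 average was 3.75, 3.36 and 3.14 in NOR replicates 1 to 3, 3.98, 4.35 and 3.82 in DEX replicates 1 to 3, and 1.96 and 2.22 in CNT. Thus each DEX animal was above each NOR animal and each NOR animal above both controls, and the DEX animals were above the NOR animals within each array set. How often other pairs of features on the array gave such an order was not counted. The mean difference between DEX and NOR was 0.63 (exact permutation test, 2-sided, p = 0.1, the smallest value 3 animals against 3 allow, adjusted 0.360 over 9 comparisons). With the signals as deposited DEX replicate 3, at 3.72, fell below NOR replicate 1, at 3.84, so that the groups overlapped, although the mean difference was again 0.63. This overlap was between the sets. Within set A DEX had 4.07 and 4.42 against 3.84 and 3.41 in NOR, and within set B 3.72 against 3.06. CXCL1 minus the CCL5 average overlapped between all groups, at 0.69 and 1.67 in CNT, from 0.85 to 2.05 in NOR and from 1.16 to 2.92 in DEX. CXCL1 minus CCL2 was lower in the NOR animals, from -2.51 to -1.70, than in the controls, at -1.27 and -0.54 (exact permutation p = 0.200, the smallest value for 3 against 2), and spread from -2.82 to -0.90 in DEX.

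**Figure D5:**
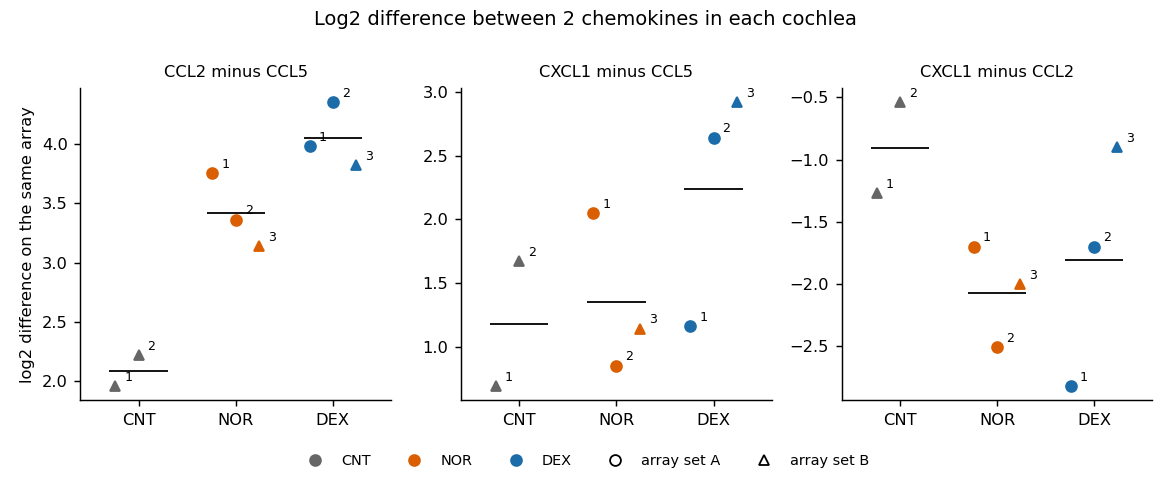
Log2 difference between the normalized signals of 2 chemokines on the same array (vertical axes) in the CNT, NOR and DEX animals, with CCL5 as the average of its 2 features. Points are animals with their replicate number, circles for array set A and triangles for set B, and lines are group means. CCL2 minus CCL5 is lowest in CNT, from 3.14 to 3.75 in NOR and from 3.82 to 4.35 in DEX, while the other pairs overlap between NOR and DEX.

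Other features with a pattern like that of a chemokine were sought through Pearson's r of the log2 signals over all 8 arrays, as a description across groups. The features nearest to CCL2 had r from 0.983 to 0.988, with EL937510 the closest, and 52 features had an r over 0.95. For CXCL1 the 3 nearest had r from 0.960 to 0.985, with EL941336 the closest, and 4 features were over 0.95. For each CCL5 feature the other was the nearest, with r = 0.981, and beyond it the same 3 features were nearest to both, with r from 0.945 to 0.966. None of these nearest features has a gene name in the sources used here.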

How the data were processed

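Total RNA of whole cochleae was reverse transcribed to cDNA, which was labeled with Cy3 for 1-color NimbleGen arrays, and signals were extracted with Agilent software. For each of 13269 features and 8 arrays, the value deposited by the authors is a single intensity on a linear scale. The submitters' processing notes name RMA, without a version or an order of steps. Sorted log2 signals differed by a median of 0.03 within set A, 0.06 within set B and 0.31 over all arrays. Sets join arrays that share at least 150 exactly equal values (246 to 384 within sets, 30 to 52 between them).

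The largest gap between arrays in a quartile of log2 signal was 0.39, over a limit of 0.05, so signals were quantile-normalized. limma 3.58.1 (R 4.3.3; prior degrees of freedom 2.92) was fitted to all features with 3 groups and no covariates, with Benjamini-Hochberg adjustment over all of them. The CCL5 average is of linear signals, fitted in place of its features. Exact permutation tests used scipy 1.17.1. The procedure was tested on simulated data without array sets, a test that does not cover the position of both controls in set B.

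Correlations of the NOR and DEX residuals with the same replicate number were 0.221, 0.360 and 0.526, over the limit of 0.1 for a pairing, while those of different numbers were 0.328 and 0.205 within a set and between -0.436 and -0.272 across sets. The block was an alternative. The methods' t-test was run here on the quantile-normalized signals, with the CCL5 features tested separately, whereas the study's averages are those of the signals as deposited, with the probes of a gene treated as 1 gene. Fits within an array set, and the overlap, order and spread of the animals as deposited or with median centring, were added after the values were seen. The members, lists and tests were chosen with earlier results of these data known. Named are the 4 features, the cytokine and leukocyte lists, and the 3 features nearest to each member, of which only the closest to CCL2 and to CXCL1 are given.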

Additional observations from a re-analysis of the deposited data

How the results depend on the processing

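In NOR against CNT, 1 chemokine feature of 4 was called. The count was 2 with the signals as deposited, the lowest 25% of features left out, the methods' t-test unadjusted on linear or log2 signals, trend and robust variances, only the 2 groups compared, the replicate block or the array set in the model. In these settings 140 to 295 of all features were called higher, against 178 in the main fit. The count of chemokine features was 4 with array weights, where 250 of all features were called higher. It was 0 with the methods' t-test after adjustment, where 0 of all features were. With single implanted animals left out it was 0 to 2, where 95 to 193 of all features were called higher. In DEX against CNT it was 2, and 4 with array weights (234 of all features called higher, against 127). It was 0 with the methods' t-test on linear signals unadjusted (109 of all features). The adjusted t-test on linear or log2 signals also gave 0 (0 of all features called higher). With single implanted animals left out it was 0 to 2, where 48 to 169 of all features were called higher. In DEX against NOR it was 0 in all 26 alternatives. The replicate block changed no other call of a chemokine, though it raised the features called higher in DEX against CNT from 127 to 214. Against CNT, fewer of all features were called higher without 1 control than without any 1 implanted animal. A lone control was taken to have the spread of the implanted groups, and the fit in set B, with 1 NOR and 1 DEX animal, rests on the spread of 2 controls alone.

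The direction changed in few cases, and the cause was not tested. In set B alone as deposited the log2 change of AB002662 in DEX against CNT was -0.05, against 0.01 between the same animals after normalization, and that of CCL2 in DEX against NOR -0.61. In set A alone as deposited DEX against NOR was 0.23 for AB002662, 0.21 for U77037 and 0.22 for their average. With single animals left out it ranged from -0.79 to 0.03 for AB002662, above 0 without DEX replicate 3, and from -0.56 to 0.10 for U77037, above 0 without DEX replicate 3 or NOR replicate 2 (0.05). The r of CCL2 with CXCL1 ranged from -0.43 to 0.58, below 0 without DEX replicate 2, and that of CXCL1 from -0.53 to 0.03 with AB002662 and from -0.60 to 0.01 with U77037, above 0 without DEX replicate 3. The number of correlated pairs was 1, and 0 with any animal left out, where 5 animals are too few for the adjusted test.

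Over all alternatives the features called higher in NOR against CNT ranged from 0 to 409 (main 178) and lower from 0 to 720 (169), those in DEX against CNT from 0 to 234 (127) and from 1 to 339 (109), and those in DEX against NOR from 0 to 3 and from 0 to 9 (0 each). As deposited, 295 features were called higher and 124 lower in NOR against CNT and 173 and 57 in DEX against CNT, and with median centring 128 and 336, and 89 and 126. The median log2 change of all features in NOR against CNT was 0.15 as deposited and -0.11 with median centring. Single features may be limited by signal near background, for which no measure was used here.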
